A study of Mus musculus with 6 samples.

Results

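The 44 genes described here encode the numbered histone deacetylases, the KDM lysine demethylases and the KMT, SETD and EHMT families of lysine methyltransferases. They are protein-coding rows of the count table whose gene symbol begins with Hdac, Kdm, Kmt, Setd or Ehmt and a number. Symbols were matched by Ensembl identifier to GENCODE M21 on mm10. The 55450 rows included 21961 protein-coding genes, and 42 of the 44 genes were among the 15028 genes with enough counts to be tested. They comprise 10 deacetylase, 16 demethylase and 18 methyltransferase genes. The rule goes by gene name, and 3 further genes with matching names are not reported here.

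Histone deacetylases remove acetyl groups from lysines of histone tails and are linked to lower transcription, and they work inside multiprotein complexes to which corepressors such as NCoR1 bring transcription factors. Lysine methylation of histones marks active or silent chromatin according to the residue. The methyltransferases described here carry a SET domain, and the marks are erased either by a flavin-dependent amine oxidase or by a Jumonji enzyme that uses iron and 2-oxoglutarate. In the intestinal epithelium, which renews itself continuously, such enzymes are known to take part in the balance between crypt progenitors and differentiated villus cells.

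PolyA RNA of epithelium scraped from the small intestine was sequenced, giving gene counts for 3 double-knockout and 3 control libraries. The labels number the libraries but do not state that each came from a separate mouse, so the p-values measure the spread between these libraries. Knockout mice (Vil1-Cre-ERT2+) carried loxP alleles of Ncor1 and of another corepressor gene on both chromosomes, together with a Cre recombinase that the villin 1 promoter drives in epithelial cells and that tamoxifen activates. Control mice (Vil1-Cre-ERT2-) carried the same loxP alleles without the Cre transgene. According to the labels' protocol, which does not set the genotypes apart, mice were injected with tamoxifen at 8 to 9 weeks of age (15 mg per 100 g body weight on 5 days) and placed in metabolic cages at day 21. The transgene was present in knockout mice only, so the deletion and the transgene cannot be told apart, and no label names the intestinal segment behind a library.

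Total counts ran from 23476031 to 34568205 in knockout and from 26199718 to 46835165 in control libraries. Ncor1 stood at 31.3, 36.4 and 22.5 CPM (counts relative to library size, with TMM scaling between libraries) in knockouts 423, 476 and 477, against 140, 137 and 99.3 CPM in controls 482, 483 and 486, so the genotype labels held for this gene. The 10 general epithelial markers, Vil1 and Epcam among them, summed to 17243 to 21318 CPM in knockout and 15945 to 20511 CPM in control libraries. Of the 10, 1 passed the edgeR test, Vil1, as lower (log2 fold change -1.20, adjusted p = 0.011). DESeq2 called 2 of the 10 higher and 2 lower. The 7 enterocyte markers, Apoa1 and Sis among them, summed to 97673 to 185162 CPM in knockouts and 47715 to 70515 CPM in controls (3 higher and 1 lower). Higher were Fabp1 (log2 fold change 2.14), Fabp2 (2.20) and Apoa4 (1.27), and lower was Anpep (-2.77). Fabp2 alone stood at 39708 to 86103 CPM in knockouts and 8011 to 17272 CPM in controls. The 14 leukocyte markers summed to 536 to 554 CPM in knockouts and 159 to 729 CPM in controls (1 higher and 2 lower of 11 tested). Gzma alone stood at 378 to 468 CPM in knockouts and 49.5 to 378 CPM in controls. In knockouts the sum therefore rests largely on that gene. Jchain stood at 4.08 to 98.4 CPM in knockouts and 52.4 to 309 CPM in controls. In controls 482 and 486 it lay above Gzma, at 52.4 and 309 CPM against 49.5 and 196 CPM. Lower were Ptprc (log2 fold change -1.78) and Itgax (-1.94), and higher was Csf1r (0.98). The 10 stromal and muscle markers summed to 6.55 to 58.0 CPM in knockouts and 9.13 to 40.8 CPM in controls (none passed of 9 tested by edgeR or DESeq2, and 1 had an unadjusted p under 0.05), and the 6 endothelial markers to 1.38 to 5.07 CPM in knockouts and 4.14 to 6.59 CPM in controls (1 lower of 4 tested). Of 6 neuron and glia markers, Elavl4 was at 0 in every library and the sum stayed at 1.596 to 2.128 CPM in knockouts and 0.840 to 1.52 CPM in controls, whereas 5 erythrocyte genes rose, summing to 35.5 to 543 CPM in knockouts and 7.95 to 22.2 CPM in controls. The part of these markers in the results that follow was not tested. Reads of overlapping genes on opposite strands cannot be told apart either; such overlaps of 500 or more exon bases involve Hdac4, Hdac11, Kdm1b, Kdm2b, Kdm3b, Kmt2e and Kmt5b. In bulk RNA, fewer cells of a type and less RNA per cell cannot be told apart.

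Histone-modifying enzyme genes were lower in the knockout in 19 of the 42 tested cases, and none was higher (edgeR quasi-likelihood test, adjusted p under 0.05 over all genes tested). Among all 15028 genes 18.3% were lower and 17.3% were higher, 35.6% in all. At an unadjusted p under 0.05, 25 of the 42 were lower and 1 was higher. The share of all genes at that unadjusted threshold was not counted, so these numbers have no comparison. DESeq2 called 21 lower and 0 higher (19.7% and 20.1% of all genes). By kind, 9 of 15 tested demethylase, 4 of 9 deacetylase and 6 of 18 methyltransferase genes fell. The median log2 fold change of the 42 genes was -0.68, against -0.06 for all genes, and 38 of the 42 had a negative sign. The effects were modest: the fitted changes lay between -1.48 for Kmt5c and 0.87 for Setd4, and tested against a 1.5-fold change, Kmt5b, Kmt5c and Kdm7a passed and no other member did (9.39% of all genes passed as lower). All 3 knockout libraries lay below all 3 control libraries in 22 of the 42 genes, against 26.4% of all genes. With scaling by library size alone 29 of the 42 were lower, against 30.3% of all genes.

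**Figure D1:**
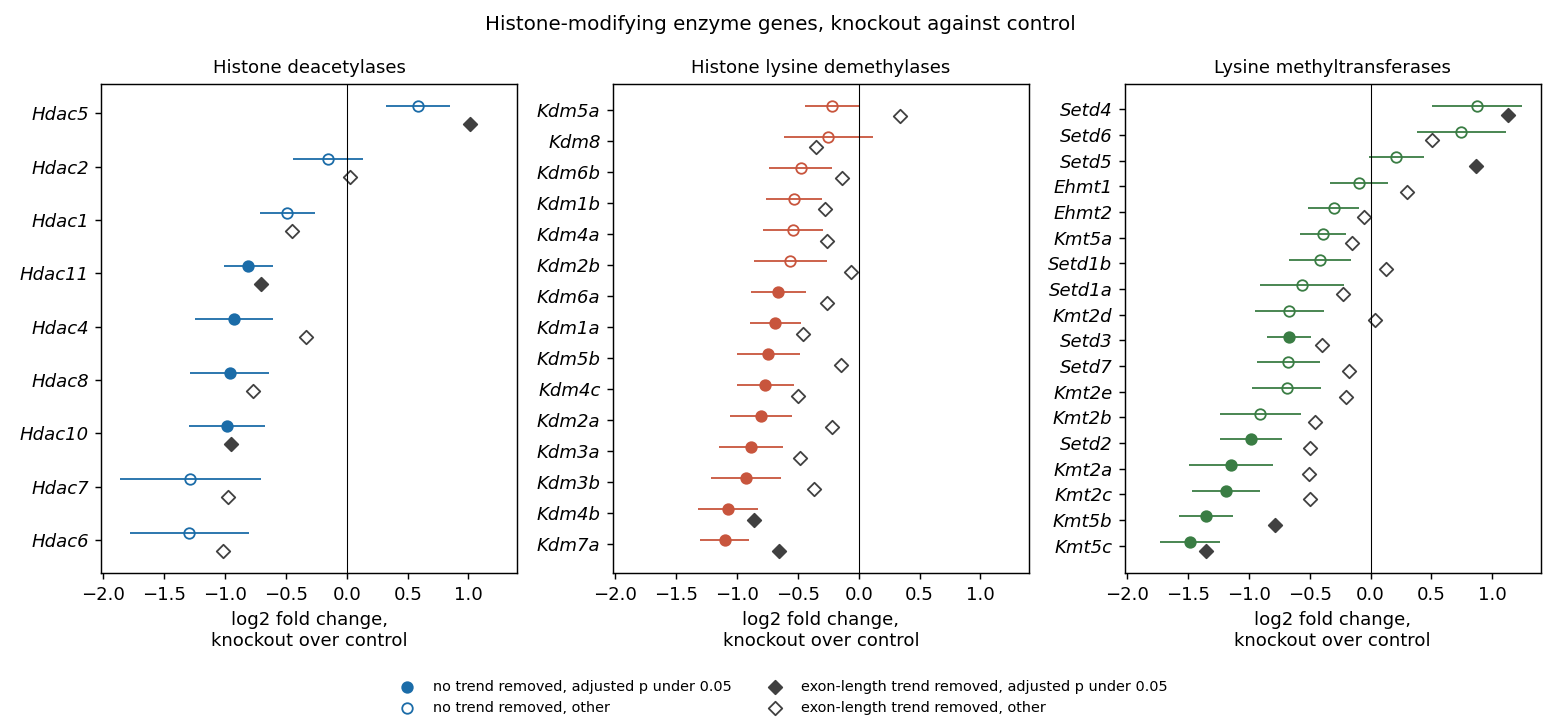
Log2 fold change (knockout over control, x axis) of the 42 tested genes in 3 panels, each row 1 gene; circles with bars are the fitted change and its SE (3 libraries per genotype), and diamonds are the change after each library's trend with exon length was removed. Filled symbols have an adjusted p under 0.05: 19 filled circles lie left of zero, while 6 filled diamonds lie left and 3 right of it.

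These genes are long, and long genes as a whole were lower in the knockout. The median exon length was 7535 bases for the 42 genes and 3684 bases for all tested genes, and 22 of the 42 fell in the longest of 5 equal groups (6843 bases or more). In that group the median log2 fold change of all genes was -0.48 and 30.3% were lower. The 22 members in it had a median of -0.72, and 11 of them were lower. In the shortest of the 5 groups (1523 bases or less), which holds no member, the median of all genes was 0.74. Spearman's rho between fold change and exon length was -0.37 across 15018 genes and -0.18 across the 42. After each library's trend with exon length was removed, rho was -0.01 across all genes and 0.21 across the 42. Across the 42 the corrected change thus tended to rise with exon length. Genes share the libraries, so these coefficients are descriptions without a test.

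**Figure D2:**
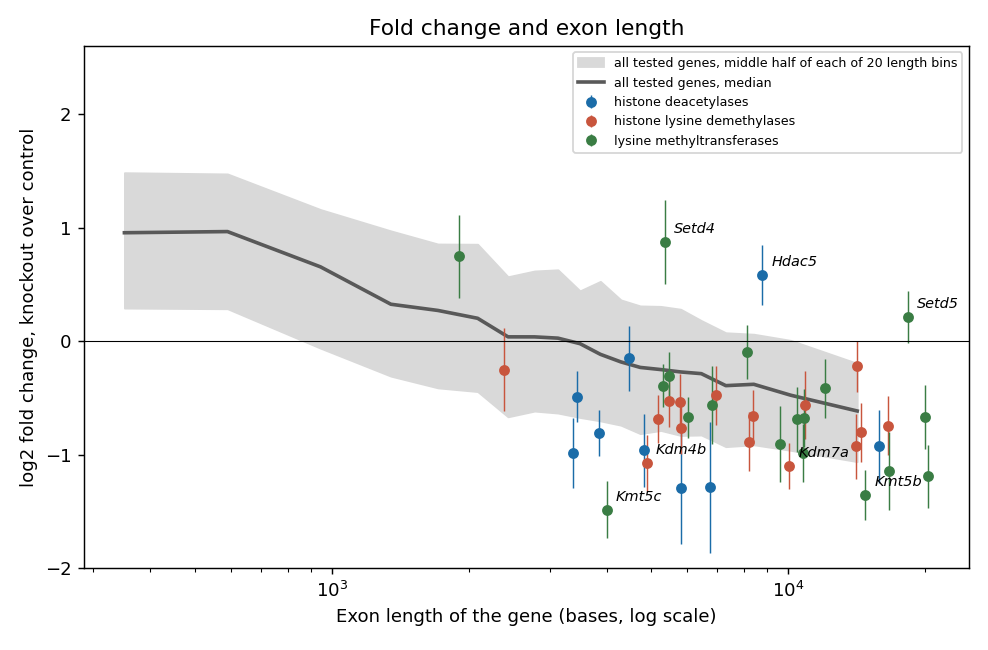
Log2 fold change (y axis) against exon length in bases (x axis, log scale). The dark line and grey band give the median and the middle 50% of all tested genes in 20 length bins, points are the 42 enzyme genes with their SE; the line falls with length, and most points lie below it, with Hdac5, Setd4 and Setd5 among those above.

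The length trend also differed between libraries of 1 genotype. The median deviation of the longest group minus that of the shortest was -0.66, -0.26 and -0.86 (log2) in knockouts 423, 476 and 477, against 0.97, 0.74 and 0.02 in controls 482, 483 and 486. Control 486 therefore stood apart from the other 2 controls, and its short and long genes lay close to their means over the 6 libraries. The 42 enzyme genes followed the long genes: their median deviation was -0.34, -0.10 and -0.59 in knockouts 423, 476 and 477, against 0.59, 0.40 and 0.04 in controls 482, 483 and 486. With control 486 left out, 25 of the 42 genes were lower (19.5% of all genes were lower). The number was 5 without knockout 477, 6 without control 483, 7 without control 482, 10 without knockout 423 and 18 without knockout 476, where 11%, 12.7%, 11.8%, 13.2% and 15.2% of all genes were lower. The calls on Hdac4, Kdm1a, Kdm2a, Kdm3a, Kdm3b, Kdm4c, Kdm5b, Kdm6a and Kmt2a were each lost without control 482, control 483, knockout 423 or knockout 477. The part of RNA quality or library preparation in this trend was not tested.

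**Figure D3:**
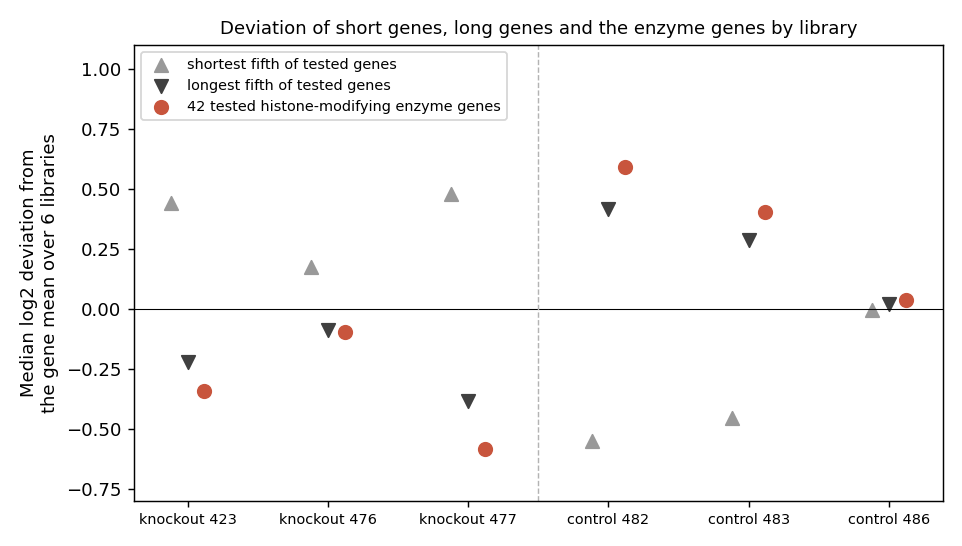
Median log2 deviation from each gene's mean over the 6 libraries (y axis) for the shortest and longest of 5 length groups of all tested genes and for the 42 enzyme genes, by library (x axis, knockouts left of the dashed line). The enzyme genes lie on the same side of zero as the long genes in each library, and control 486 lies near zero for all 3 sets.

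Once the smooth relation of each library to exon length had been taken out, 6 of the 42 genes were lower and 3 were higher (15.7% and 15.8% of all genes), at a median of -0.31. Lower were Hdac10, Hdac11, Kdm4b, Kdm7a, Kmt5b and Kmt5c, and higher were Hdac5, Setd4 and Setd5. With the trends in length and GC content removed together, 8 were lower and 4 higher (15.4% and 15.8% of all genes), at a median of -0.22. Lower in that fit were Hdac8, Kdm4b, Kdm4c, Kdm7a, Kmt5b, Kmt5c, Setd2 and Setd3, and higher were Hdac5, Setd1b, Setd4 and Setd5. Only Kdm4b, Kdm7a, Kmt5b and Kmt5c were lower in all 3 fits. The correction takes out any change that runs with length, whatever its source. Values after it are therefore given beside the uncorrected ones and not in their place.

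The H4 lysine methyltransferases of the KMT5 family held the 2 largest fitted falls of the set. Kmt5a encodes the enzyme that adds the first methyl group to lysine 20 of histone H4. Kmt5b and Kmt5c (also known as Suv420h1 and Suv420h2) encode the enzymes that add further ones. Kmt5c (ENSMUSG00000059851, chromosome 7, 4740115 to 4747514) stood at 16.6, 24.9 and 17.4 CPM in knockouts 423, 476 and 477, against 68.0, 55.1 and 41.9 CPM in controls 482, 483 and 486. Every knockout library lay below every control library, and the log2 fold change was -1.48 (SE 0.25, adjusted p = 0.0024), a 2.80-fold lower level. Kmt5b (ENSMUSG00000045098, chromosome 19, 3767421 to 3818303) stood at 17.6, 21.1 and 13.5 CPM in knockouts 423, 476 and 477, against 50.1, 45.0 and 38.4 CPM in controls 482, 483 and 486. The genotypes did not overlap here either, and the log2 fold change was -1.35 (SE 0.22, adjusted p = 0.0021). Kmt5b shares 927 exon bases with the opposite-strand gene Gm16066. It is long (14752 exon bases) and Kmt5c is near the middle of all genes (4001), and after the length trend was removed the changes were -0.79 (adjusted p = 0.0067) and -1.35 (adjusted p = 0.0025). Both passed with each library left out in turn, with and without the length trend.

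Kmt5a was the most abundant of the 44 genes per exon length, at 19.8 ± 1.95 RPKM in knockouts and 25.99 ± 1.27 RPKM in controls (SD, n = 3, TMM-scaled CPM per kilobase of exon). Its libraries stood at 93.4, 108 and 113 CPM in knockouts 423, 476 and 477, against 145, 131 and 138 CPM in controls 482, 483 and 486, which do not overlap. The log2 fold change of -0.39 (SE 0.19) did not pass the test (adjusted p = 0.13). Within a library, library scaling cancels: the log2 ratio of Kmt5c to Kmt5a was -2.44 ± 0.29 in knockouts and -1.35 ± 0.33 in controls, and that of Kmt5b to Kmt5a was -2.61 ± 0.39 in knockouts and -1.64 ± 0.18 in controls (SD, n = 3). The trend with exon length does not cancel, as the genes differ in length. Kmt5b has 14752 exon bases, Kmt5c 4001 and Kmt5a 5307. These pairs were chosen with the changes known, and the ratios are a description.

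Start regions are shown for Kmt5b, Kmt5c and Kdm7a, which passed the test against a 1.5-fold change, and for Hdac5, the deacetylase gene that was higher once the length trend was removed. Kdm4b, Setd4 and Setd5 also passed in both trend-corrected fits and are not shown. RefSeq windows (GRCm38.p6, 250 bases before to 50 after a transcript start, written on the gene's strand) were found for 34 of the 44 genes. Capitals mark matches on either strand to the GC box GGGCGG, the CCAAT box CCAAT, the E-box CACGTG, the nuclear receptor half-site AGGTCA or the TATA box TATAAA. Adjoining GC boxes run together as 1 stretch of capitals.
Kmt5b, chr19:3767171-3767470, plus strand: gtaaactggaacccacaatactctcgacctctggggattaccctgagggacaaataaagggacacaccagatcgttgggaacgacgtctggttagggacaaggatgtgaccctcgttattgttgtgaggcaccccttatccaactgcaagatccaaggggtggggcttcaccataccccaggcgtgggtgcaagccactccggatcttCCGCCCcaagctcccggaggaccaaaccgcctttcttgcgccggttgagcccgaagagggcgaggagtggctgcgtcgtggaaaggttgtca
Kmt5c, chr7:4739877-4740176, plus strand: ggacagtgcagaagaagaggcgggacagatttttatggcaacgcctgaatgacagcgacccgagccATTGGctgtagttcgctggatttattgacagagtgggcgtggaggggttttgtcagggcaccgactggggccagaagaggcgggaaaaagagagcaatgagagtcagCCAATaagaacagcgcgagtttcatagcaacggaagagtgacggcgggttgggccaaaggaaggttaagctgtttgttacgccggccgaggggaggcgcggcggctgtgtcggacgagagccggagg
Kdm7a, chr6:39206724-39207023, minus strand: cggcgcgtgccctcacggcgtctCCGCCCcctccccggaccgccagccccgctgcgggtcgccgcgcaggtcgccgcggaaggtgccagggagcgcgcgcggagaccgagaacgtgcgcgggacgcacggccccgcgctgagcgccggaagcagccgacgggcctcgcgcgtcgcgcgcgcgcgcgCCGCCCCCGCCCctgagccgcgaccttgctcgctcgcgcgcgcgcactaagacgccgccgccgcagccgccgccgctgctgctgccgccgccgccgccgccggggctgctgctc
Hdac5, chr11:102230123-102230422, minus strand: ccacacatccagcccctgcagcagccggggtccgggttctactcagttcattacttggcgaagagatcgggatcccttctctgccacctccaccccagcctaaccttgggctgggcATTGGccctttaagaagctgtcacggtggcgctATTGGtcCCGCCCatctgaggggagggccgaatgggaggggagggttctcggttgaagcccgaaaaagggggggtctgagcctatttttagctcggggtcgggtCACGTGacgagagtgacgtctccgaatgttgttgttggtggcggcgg

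Kmt5b held 1 GC box, Kmt5c 2 CCAAT boxes, Kdm7a 3 GC boxes and Hdac5 1 GC box, 2 CCAAT boxes and 1 E-box. The Kdm7a window held 65 CpG dinucleotides, against 16, 22 and 18 in the Kmt5b, Kmt5c and Hdac5 windows and a median of 7 over all 32851 windows. Of all windows 35.7% held a GC box, 37.4% a CCAAT box, 7.15% an E-box, 16.3% a half-site and 13.6% a TATA box. Among the 34 windows of the enzyme genes the numbers were 23, 14, 3, 4 and 2. Each of these 34 is the window nearest the gene's annotated start. The 32851 were taken without such a choice, so the sets are not alike. None of the 4 windows shown held AGGTCA or TATAAA, which says only that these letters are not in them.

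**Figure D4:**
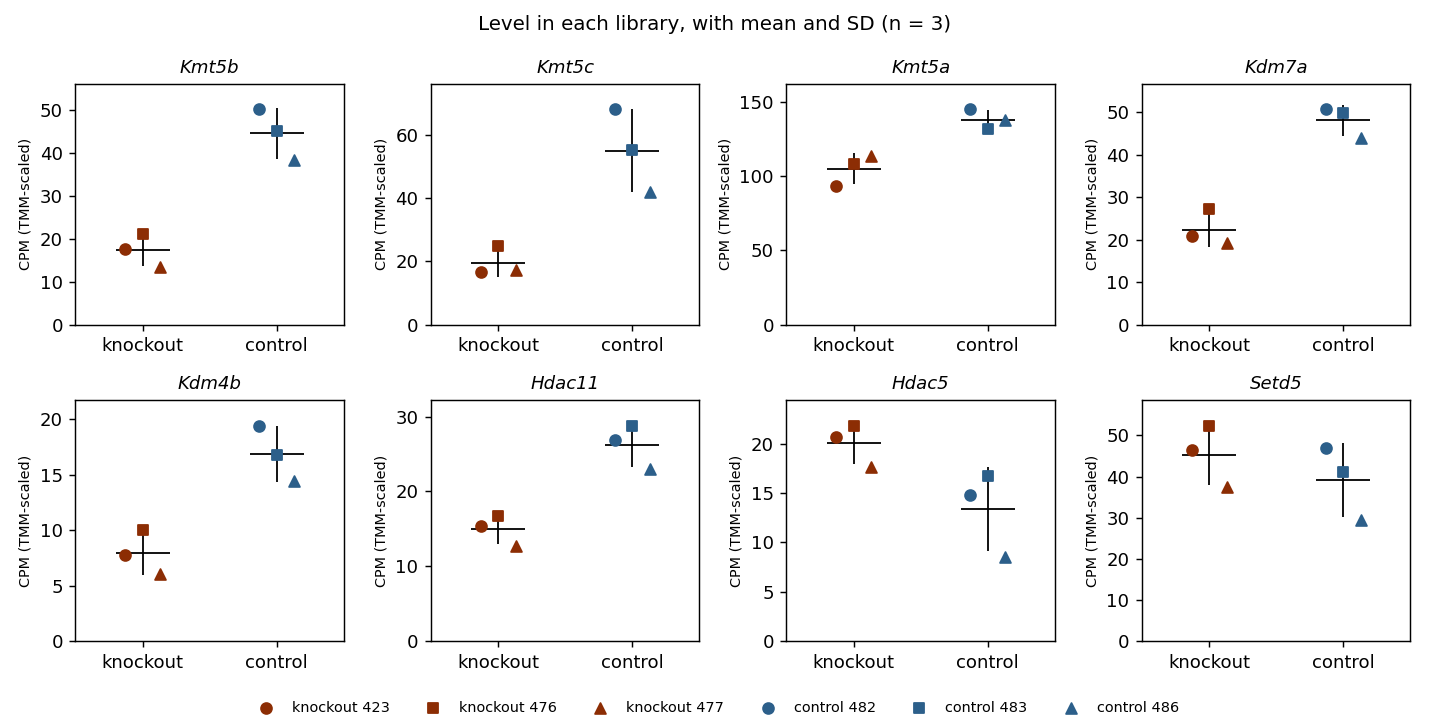
Level in CPM (y axis, from zero) in each library of 8 genes, knockouts left and controls right in each panel; black bars give the mean and SD of 3 libraries. Kmt5b, Kmt5c, Kmt5a, Kdm7a, Kdm4b and Hdac11 are lower in every knockout library, Hdac5 is higher in every knockout library, and Setd5 overlaps.

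Among the demethylases, Kdm7a and Kdm4b changed most. Kdm7a, a Jumonji enzyme that removes methyl groups from lysines 9 and 27 of histone H3, stood at 20.8, 27.2 and 19.2 CPM in knockouts 423, 476 and 477, against 50.6, 49.7 and 43.8 CPM in controls 482, 483 and 486. The gap between genotypes was wider than the range within either, and the fitted log2 difference was -1.10 (SE 0.20, adjusted p = 0.0036), or -0.65 with the length trend removed (adjusted p = 0.016). That last call was lost without control 483 or knockout 477 (adjusted p up to 0.067). Kdm4b, which acts on trimethylated lysine 9 of H3, stood at 7.78, 10.04 and 6.10 CPM in knockouts 423, 476 and 477, against 19.4, 16.8 and 14.4 CPM in controls 482, 483 and 486. It did not overlap and its fitted change was -1.08 (log2, SE 0.25, adjusted p = 0.010), or -0.86 with the length trend removed (adjusted p = 0.013, and 0.054 without knockout 477).

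The paralogs of Kdm4b had smaller fitted changes, and the difference between them was not tested. Kdm4c fell, at 5.72, 8.61 and 7.53 CPM in knockouts 423, 476 and 477, against 12.2, 12.9 and 12.1 CPM in controls 482, 483 and 486 (log2 fold change -0.77, SE 0.23, adjusted p = 0.029). Its change was -0.50 with the length trend removed (adjusted p = 0.10) and -0.65 with length and GC removed (adjusted p = 0.043). Kdm4a, the highest of the family per exon length, stood at 14.0, 22.2 and 18.3 CPM in knockouts 423, 476 and 477, against 33.6, 24.3 and 21.4 CPM in controls 482, 483 and 486. The genotypes overlapped in Kdm4a, which did not pass the test (-0.54, adjusted p = 0.12). Kdm4d, known for its expression in testis, had 1 count over the knockout and 1 over the control libraries and was not tested.

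The H3 lysine 9 demethylase genes Kdm3a and Kdm3b both fell. Kdm3a stood at 17.9, 25.8 and 16.9 CPM in knockouts 423, 476 and 477, against 48.8, 35.7 and 27.6 CPM in controls 482, 483 and 486 (log2 fold change -0.88, SE 0.26, adjusted p = 0.027). Kdm3b stood at 12.95, 13.16 and 6.96 CPM in knockouts 423, 476 and 477, against 25.1, 21.8 and 16.2 CPM in controls 482, 483 and 486 (-0.93, SE 0.29, adjusted p = 0.031). Neither overlapped between genotypes, and neither passed after the length trend was removed (-0.49 and -0.37). Of the 14095 exon bases of Kdm3b, 3468 are shared with the opposite-strand gene Gm26538, whose reads cannot be told apart from those of Kdm3b.

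Kdm2a encodes a demethylase of H3 lysine 36 that binds CpG islands. It stood at 51.1, 75.7 and 50.4 CPM in knockouts 423, 476 and 477, against 119, 116 and 74.1 CPM in controls 482, 483 and 486. Knockout 476 lay just above control 486, and the log2 fold change was -0.80 (SE 0.26, adjusted p = 0.036), but -0.22 with the length trend removed (14446 exon bases). Its paralog Kdm2b, a subunit of a Polycomb complex, did not pass (-0.56, adjusted p = 0.17).

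Of the enzymes that erase methyl groups from lysine 4 of H3, Kdm1a and Kdm5b fell. Kdm1a (LSD1), the flavin-dependent enzyme of the CoREST complex that works beside deacetylases, stood at 13.2, 16.0 and 11.7 CPM in knockouts 423, 476 and 477, against 25.3, 19.8 and 20.8 CPM in controls 482, 483 and 486. These do not overlap (log2 fold change -0.68, SE 0.21, adjusted p = 0.031), while with the length trend removed the change was -0.45 (adjusted p = 0.076). Kdm5b stood at 21.1, 28.6 and 15.3 CPM in knockouts 423, 476 and 477, against 41.4, 38.2 and 29.3 CPM in controls 482, 483 and 486 (-0.74, SE 0.26, adjusted p = 0.047), and knockout 476 came within 1 CPM of control 486. It is among the longest members (16555 exon bases), and its change was -0.15 after the length trend was removed. Kdm1b, whose knockout libraries all lay below the controls, and Kdm5a had log2 fold changes of -0.53 and -0.22 and did not pass (adjusted p = 0.095 and 0.46).

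The H3 lysine 27 demethylase gene Kdm6a (UTX) stood at 10.5, 14.3 and 10.9 CPM in knockouts 423, 476 and 477, against 21.8, 19.5 and 15.2 CPM in controls 482, 483 and 486. It fell without overlap (log2 fold change -0.66, SE 0.23, adjusted p = 0.047), and the change was -0.26 with the length trend removed. Kdm6b (JMJD3), the most abundant demethylase gene per exon length at 8.04 ± 1.4997 RPKM in knockouts and 11.2 ± 3.24 RPKM in controls (SD, n = 3), did not pass. It stood at 51.3, 67.8 and 48.5 CPM in knockouts 423, 476 and 477, against 86.3, 94.8 and 52.2 CPM in controls 482, 483 and 486, so that only control 486 fell inside the knockout range (-0.48, adjusted p = 0.17). Kdm8 was low, at 1.16, 1.16 and 1.15 CPM in knockouts 423, 476 and 477, against 1.496, 1.081 and 1.543 CPM in controls 482, 483 and 486 (-0.25, adjusted p = 0.62).

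Of the 9 tested deacetylase genes, Hdac4, Hdac8, Hdac10 and Hdac11 fell. Class I holds nuclear enzymes. Of the 3 class I genes described here Hdac1 was the highest per exon length, at 3.97 ± 1.01 RPKM in knockouts and 5.57 ± 0.268 RPKM in controls (SD, n = 3). Hdac1 and Hdac2 are the catalytic subunits of the Sin3, NuRD and CoREST complexes. Hdac1 stood at 17.3, 13.3 and 10.4 CPM in knockouts 423, 476 and 477, against 19.2, 18.3 and 20.1 CPM in controls 482, 483 and 486. The genotypes did not overlap, but the log2 fold change of -0.49 (SE 0.23) did not pass (adjusted p = 0.12). Hdac2 overlapped widely (-0.15, SE 0.29, adjusted p = 0.70), with 17.3 CPM in knockout 423 above every control. Hdac8, which deacetylates the cohesin subunit SMC3, was low and fell, at 2.24, 2.09 and 1.38 CPM in knockouts 423, 476 and 477, against 3.18, 3.98 and 4.06 CPM in controls 482, 483 and 486 (-0.96, SE 0.33, adjusted p = 0.044). The call on Hdac8 was lost with any 1 library left out (adjusted p of 0.061 to 0.14). Its change was -0.77 with the length trend removed (adjusted p = 0.081) and -0.96 with length and GC removed (adjusted p = 0.037).

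Class IIa enzymes have little deacetylase activity of their own, bind MEF2 transcription factors, and act through corepressor complexes that hold NCoR1. In this class the fitted changes of Hdac5 and Hdac4 had opposite signs. Hdac5 (ENSMUSG00000008855, chromosome 11, 102194432 to 102230166), the most abundant of the class per exon length, stood at 20.7, 21.8 and 17.7 CPM in knockouts 423, 476 and 477, against 14.8, 16.8 and 8.57 CPM in controls 482, 483 and 486. All knockout libraries lay above all controls, as in 23.9% of all genes, yet the log2 fold change of 0.59 (SE 0.27) did not pass (adjusted p = 0.11). With the length trend removed it was 1.01 (adjusted p = 0.0066) and with length and GC removed 1.46 (adjusted p = 0.00062), and the length-corrected call held without any 1 library. Hdac4 stood at 6.80, 7.35 and 3.45 CPM in knockouts 423, 476 and 477, against 12.6, 12.7 and 8.34 CPM in controls 482, 483 and 486 (-0.93, SE 0.32, adjusted p = 0.048). It did not overlap and fell, but its change was -0.34 with the length trend removed, and 3536 of its 15813 exon bases are shared with the opposite-strand gene Gm26720. The log2 ratio of Hdac5 to Hdac4 within a library was 1.84 ± 0.44 in knockouts and 0.22 ± 0.18 in controls (SD, n = 3). Hdac5 is shorter than Hdac4 (8780 exon bases), so the length trend does not cancel in this ratio. Hdac7 was low and overlapped (-1.29, SE 0.58, adjusted p = 0.11), and Hdac9, with 2 counts over the knockout libraries and 24 over the controls, 18 of them in control 483, was not tested.

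In class IIb, Hdac10, a polyamine deacetylase, fell, at 3.62, 2.73 and 2.13 CPM in knockouts 423, 476 and 477, against 6.83, 4.63 and 5.37 CPM in controls 482, 483 and 486. The ranges did not overlap (log2 fold change -0.98, SE 0.31, adjusted p = 0.034), and with 3379 exon bases the length trend left the change at -0.95 (adjusted p = 0.030). With length and GC removed the change was -0.74 and did not pass (adjusted p = 0.069). The uncorrected call was kept in 1 of 6 fits with a library left out, the one without knockout 423. The length-corrected call was kept in 2 of 6 such fits (adjusted p up to 0.12). Hdac6, the tubulin deacetylase, had a log2 fold change of -1.30 (SE 0.49) at 0.518 to 1.70 CPM in knockouts and 1.80 to 3.77 CPM in controls, and missed the threshold (adjusted p = 0.063). Hdac11, the single class IV enzyme and an efficient remover of fatty acyl groups from lysines, stood at 15.3, 16.7 and 12.8 CPM in knockouts 423, 476 and 477, against 26.9, 28.7 and 23.0 CPM in controls 482, 483 and 486. Per exon length it was the highest in the controls of the deacetylase genes described here (6.81 ± 0.761 RPKM, SD, n = 3). Hdac11 fell without overlap (-0.81, SE 0.20, adjusted p = 0.014), a call lost without control 483 or knockout 477 (adjusted p up to 0.064). Its change was -0.70 with the length trend removed (adjusted p = 0.016) and -0.45 with length and GC removed (adjusted p = 0.055). The length-corrected call was also lost without control 483 or knockout 477 (adjusted p up to 0.071).

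The MLL and SET1 genes encode the enzymes that methylate lysine 4 of histone H3. They are long (a median of 12068 exon bases for the 7 genes with Setd7). Kmt2c, which acts at enhancers, stood at 18.1, 23.6 and 15.6 CPM in knockouts 423, 476 and 477, against 52.7, 50.9 and 27.5 CPM in controls 482, 483 and 486 (log2 fold change -1.19, SE 0.28, adjusted p = 0.011). Kmt2a (MLL1) stood at 7.71, 12.8 and 6.96 CPM in knockouts 423, 476 and 477, against 25.8, 23.6 and 11.7 CPM in controls 482, 483 and 486 (-1.15, SE 0.34, adjusted p = 0.028). In both, control 486 was the lowest control, and in Kmt2a knockout 476 lay above it. With the length trend removed the changes were -0.50 and -0.51, and neither passed (adjusted p = 0.057 and 0.13), nor did any other of the 7.

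Kmt2b, the highest of these genes per exon length, stood at 17.0, 25.8 and 12.7 CPM in knockouts 423, 476 and 477, against 46.6, 36.5 and 21.2 CPM in controls 482, 483 and 486 (log2 fold change -0.91, SE 0.33, adjusted p = 0.058). Its genotypes overlapped through control 486. Kmt2d (-0.67), Setd7 (-0.68), Setd1a (-0.56) and Setd1b (-0.42) did not pass either. Setd1b turned to 0.53 (adjusted p = 0.036) once the length and GC trends were removed together. It was the 1 member that passed the test with its sign turned. In that fit 7 other members, Kmt2d and Ehmt2 among them, also went to a positive sign and did not pass. Setd1a shares 3523 of its 6795 exon bases with Gm49388 on the same strand, so its counts are uncertain.

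Setd2 encodes the enzyme responsible for trimethylation of lysine 36 of H3 along transcribed genes. It fell, at 15.9, 18.1 and 11.6 CPM in knockouts 423, 476 and 477, against 37.6, 30.3 and 22.5 CPM in controls 482, 483 and 486 (log2 fold change -0.98, SE 0.25, adjusted p = 0.016). The genotypes did not overlap. With the length trend removed the change was -0.49 (adjusted p = 0.061), and with length and GC it was -0.56 (adjusted p = 0.041). The call was lost without control 482 or knockout 477 (adjusted p up to 0.064).

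The H3 lysine 9 methyltransferase genes Ehmt2 (G9a) and Ehmt1 (GLP) did not pass the test. Ehmt2 stood at 48.7, 55.9 and 39.4 CPM in knockouts 423, 476 and 477, against 66.5, 61.3 and 50.2 CPM in controls 482, 483 and 486 (log2 fold change -0.30, SE 0.21, adjusted p = 0.27). Ehmt1, its partner in a heterodimer, had a smaller difference (-0.10 on the log2 scale, SE 0.24, adjusted p = 0.78). The genotypes overlapped in both.

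The SETD genes outside these groups included those with a positive sign. Setd5, which has a SET domain and is found with NCoR1 complexes, is long (18347 exon bases) and stood at 46.4, 52.3 and 37.4 CPM in knockouts 423, 476 and 477, against 47.0, 41.1 and 29.5 CPM in controls 482, 483 and 486. These overlap (log2 fold change 0.21, SE 0.23, adjusted p = 0.49, and -0.23 with library-size scaling alone), but the change was 0.86 with the length trend removed (adjusted p = 0.0034), a call that held without any 1 library. Its log2 ratio to Setd2 within a library was 1.54, 1.53 and 1.69 in knockouts 423, 476 and 477, against 0.32, 0.44 and 0.39 in controls 482, 483 and 486. Setd2 is shorter than Setd5 (10754 exon bases), so the length trend does not cancel in this ratio. Setd4 was low, at 3.329, 2.892 and 2.703 CPM in knockouts 423, 476 and 477, against 2.15, 1.72 and 1.02 CPM in controls 482, 483 and 486. It did not overlap, and its log2 fold change was 0.87 (SE 0.37, adjusted p = 0.092), or 1.13 with the length trend removed (adjusted p = 0.029), a call kept in 1 of 6 fits with a library left out.

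Setd3, the actin histidine methyltransferase, was the most abundant SETD gene per exon length, at 7.81 ± 0.701 RPKM in knockouts and 12.4 ± 0.543 RPKM in controls (SD, n = 3). It stood at 49.4, 49.8 and 42.3 CPM in knockouts 423, 476 and 477, against 72.0, 74.7 and 78.5 CPM in controls 482, 483 and 486. Setd3 fell without overlap (log2 fold change -0.67, SE 0.18, adjusted p = 0.018). This uncorrected call was lost without control 483 or knockout 477 (adjusted p up to 0.088). The change was -0.40 once the length trend was removed (adjusted p = 0.10) and -0.48 with length and GC removed (adjusted p = 0.046). Control 486 was its highest library, the reverse of the MLL genes. Setd6, which methylates the NF-kappaB subunit RelA, and Kmt2e had log2 fold changes of 0.75 and -0.69 and did not pass (adjusted p = 0.14 and 0.086).

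**Figure D5:**
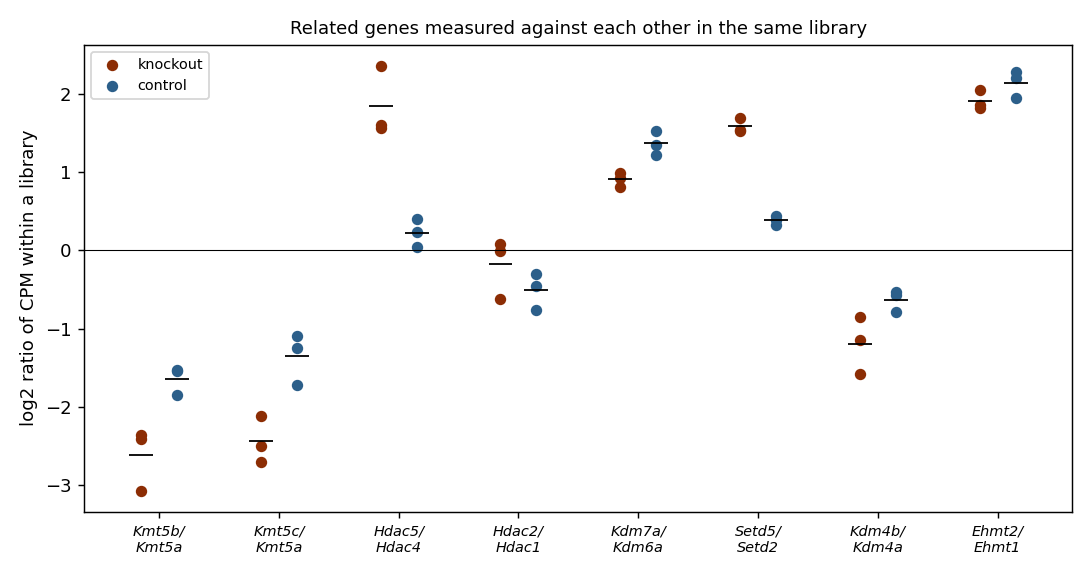
Log2 ratio of the CPM of related genes within the same library (y axis) for 8 pairs (x axis); dots are libraries, knockouts left and controls right of each tick, and black lines are means of 3. The genotypes separate for Kmt5b and Kmt5c over Kmt5a, Hdac5 over Hdac4, Kdm7a over Kdm6a, Setd5 over Setd2 and Kdm4b over Kdm4a. The last separates narrowly, with -0.848 in knockout 423 against -0.791 in control 482. They overlap for Hdac2 over Hdac1 and Ehmt2 over Ehmt1. The genes were chosen with earlier results known, so separation is a description without a test. The length trend does not cancel between genes of unlike length.

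Other chromatin enzymes and partner subunits, from lists of known family members, were counted in the same fit, in which 17.3% of all genes rose and 18.3% fell (15.8% and 15.7% with the length trend removed). Of 7 sirtuins, the NAD-dependent deacetylases, 1 fell: Sirt1, at 7.45, 8.84 and 9.15 CPM in knockouts 423, 476 and 477, against 20.5, 23.5 and 18.9 CPM in controls 482, 483 and 486. Sirt1 did not overlap (log2 fold change -1.31, SE 0.21, adjusted p = 0.0018), and the change was -1.06 with the length trend removed (adjusted p = 0.0032). Of 10 lysine acetyltransferases, the enzymes that oppose deacetylases, 2 rose and 4 fell, against 17.3% and 18.3% of all genes. Hat1, which acetylates newly made histone H4, rose, at 19.4, 13.2 and 17.0 CPM in knockouts 423, 476 and 477, against 6.260, 7.497 and 7.792 CPM in controls 482, 483 and 486 (1.20, SE 0.23, adjusted p = 0.0046). Kat6b (-1.27) and Kat6a (-0.91) fell, and no acetyltransferase was lower once the length trend was removed.

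Of 27 tested subunits of the Sin3, NuRD, CoREST and MIER deacetylase complexes, none rose and 9 fell, against 17.3% and 18.3% of all genes, among them Sap30l (log2 fold change -1.20), Mier3 (-1.40) and Zmym2 (-0.96). With the length trend removed 2 rose and 6 fell, against 15.8% and 15.7% of all genes, and DESeq2 called 1 higher without that correction. At an unadjusted p under 0.05, 3 were higher and 13 lower, again without a share of all genes for comparison. Of 11 tested partners of the H3 lysine 4 methyltransferases, 1 rose (Dpy30, 1.15) and 3 fell, including Ash2l (-0.79) and Cxxc1 (-0.97), and 1 fell with the length trend removed. Of 8 genes of Polycomb repressive complex 2, which methylates lysine 27 of H3, 3 fell. These were Jarid2 (-1.82, SE 0.25, adjusted p = 0.00089), Phf1 (-1.41) and Ezh1 (-0.65), and 2 fell with the length trend removed.

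Of 16 other lysine methyltransferase genes 3 fell (Prdm2 -0.95, Setdb1 -0.85 and Setdb2 -1.002) and none rose, close to the 18.3% of all genes that fell. With the length trend removed 1 of the 16 was higher and 1 lower, and the calls on Setdb1 and Setdb2 were lost (adjusted p = 0.12 and 0.057). Of 8 tested arginine methyltransferase genes none passed in edgeR, at a median of 0.48 (1 was higher by unadjusted p, and 1 in DESeq2). By edgeR, Prmt7 had the smallest adjusted p of the arginine enzymes (0.065, at a log2 fold change of 1.11). Of 9 other Jumonji proteins 1 rose (Riox1, 0.87) and 3 fell, with Hr, the hairless corepressor, at -3.03 (SE 0.52, adjusted p = 0.0028), Jarid2 and Phf8 (-0.75). Of 9 tested genes for MEF2 factors and 14-3-3 proteins, which class IIa deacetylases bind, 1 rose (Ywhag, 0.94) and 1 fell (Mef2a, -0.81). Of 16 proliferation genes 1 passed, Pcna, and the list summed to 157 to 287 CPM in knockouts and 89.9 to 141 CPM in controls. Pcna alone stood at 104, 107 and 150 CPM in knockouts 423, 476 and 477, against 29.3, 29.0 and 40.6 CPM in controls 482, 483 and 486. The other 15 genes summed to 183, 50.2 and 34.6 CPM in knockouts 423, 476 and 477, against 112, 60.9 and 65.9 CPM in controls 482, 483 and 486, so without Pcna the genotypes overlapped. The list's part in the levels of Hat1 and the KMT5 genes was not tested.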

How the data were processed

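The authors deposited raw gene counts, whole numbers without normalization, for 6 libraries (3 per genotype). Per the submitters' processing notes reads were handled with STAR 2.7.9a, fastp 0.21.0 and bcl2fastq, on build mm10, and the notes also name FastQC 0.11.7, Subread 1.6.2 with featureCounts, and DESeq2 1.23.10. Neither the annotation nor the strand setting of the counting is stated in these sources, so reads of overlapping opposite-strand genes cannot be told apart. The deposited table of variance-stabilised values was not used.

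The fit used edgeR 4.0.16 under R 4.3.3 (TMM scaling, filterByExpr, robust quasi-likelihood test, Benjamini-Hochberg adjustment over all 15028 genes, threshold 0.05). Log2 CPM used a prior count of 2, and each SE was taken as the absolute log2 change divided by the root of F. Library numbers are not shared between genotypes, so nothing was paired. Libraries of 1 genotype were not copies of each other (their chi-square was at least 68.1 times its degrees of freedom). A floor of 3 counts equals 0.0586 to 0.173 CPM, for counting error only.

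Exon lengths and coordinates came from GENCODE M21, GC content from each gene's longest transcript. Length and GC trends were removed by a local regression (span 0.3) of each library's deviations, entered as offsets. Other alternatives were 3 scalings, 2 filters, DESeq2 1.42.0, limma-voom (limma 3.58.1), omission of the 20 most abundant genes, each library left out and a test for changes beyond 1.5-fold. Leaving out libraries within the length-corrected fit was decided on with the data in view, as was the proliferation sum without Pcna. The code was tested on simulated counts.

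The genes and lists were chosen with earlier results of these data known. Values in each library are given for every member past the threshold and for the member with the highest level per exon length of each class; up to 3 genes with the smallest adjusted p are named of each other list. Setd4, Setd5, Riox1 and the unlisted values of Hat1 and Sirt1 were added after their values were seen. Genes matching the name patterns that are not reported here number 3.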

Additional observations from a re-analysis of the deposited data

How the results depend on the processing

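No paired analysis was possible because the genotypes share no replicate numbers. Median-of-ratios and upper-quartile scaling, both filters, DESeq2, limma-voom and omission of the 20 most abundant genes left the number of lower members within 1.5 times of 19 and none higher, at median log2 fold changes of -0.72 to -0.63. Scaling by library size alone shifted all genes by a median of -0.44, and 29 members were lower at a median of -1.13, while 1133 of all genes were higher and 4554 lower. Against a 1.5-fold change 3 members were lower, and 1221 of all genes were higher and 1411 lower.

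With the exon-length trend removed 6 members were lower and 3 higher at a median of -0.31, and with length and GC trends removed 8 were lower and 4 higher at -0.22. Setd1b reversed to 0.53 and passed the test in the second of these. Among the 42 members, removal of the length trend ended 13 calls and added 3.

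With 1 library left out, 5 to 25 members were lower and 0 higher, at medians of -0.83 to -0.56. Of all genes 1510 to 2958 were higher and 1748 to 2982 lower. The calls kept in all 6 such fits were those of Kdm4b, Kdm7a, Kmt2c, Kmt5b and Kmt5c. With the length trend removed as well, 2 to 7 members were lower and 2 to 3 higher, (10.3% to 14.7% of all genes lower, 10.1% to 16.1% higher), and the lowest count came without knockout 477. That combination was chosen after seeing the data. Fewer libraries also lower the power of the test. Low counts limit Hdac6, Hdac7, Hdac8, Hdac9, Kdm4d, Kdm8 and Setd4, where 3 counts correspond to as much as 0.173 CPM.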
